A study of Mus musculus with 130 samples.

Results

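The clustered protocadherins were followed across 10 RNA-seq libraries, all made from embryonic stem cells of the mouse. Members were all genes whose symbol starts with Pcdha, Pcdhb or Pcdhg followed by a number, or by a, b or c and a number. The rule used names only and found 58 of the 52550 genes in the files, of which 14 are alpha, 22 beta and 22 gamma genes. The symbol Pcdha11 belongs to 2 gene IDs in the files (ENSMUSG00000007440.10 and ENSMUSG00000102206.5), and both were kept. All 58 lie on chromosome 18 of GRCm38 between positions 36930285 and 37841873. The alpha genes run from 36930285 to 37188897, the beta genes from 37264998 to 37521419 and the gamma genes from 37661775 to 37841873. RefSeq gives Pcdhgb8 as a transcribed pseudogene and the other members as protein coding.

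Clustered protocadherins are cell-surface recognition proteins of the cadherin superfamily, best known for giving single neurons distinct surface identities. Each alpha and gamma gene has its own promoter and its own large variable exon, which encodes the extracellular part and is spliced to constant exons shared by the whole cluster, whereas each beta gene is a single exon. The A-, B- and other variable promoters are known to be chosen largely at random in neurons with the help of CTCF and cohesin, while the C-type genes at the 3′ ends of the alpha and gamma clusters are used more uniformly. DNA methylation, the chromatin protein SMCHD1 and methylation of lysine 9 of histone H3 are known to hold these promoters silent in other cells.

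The study asked what G9a (gene Ehmt2), an enzyme that methylates lysine 9 of histone H3 with its partner GLP (gene Ehmt1), does in embryonic stem cells. All cells were grown on gelatin in serum with leukemia inhibitory factor, total RNA was used, and libraries were made with Smart-seq2, which amplifies full-length cDNA. Each group had 1 library, so there is no replicate spread and no test of any condition. From strain C57BL/6xCBA came the wild-type line TT2 (WT TT2), a line with genotype G9a-/- Tg(Y1120V;Y1207F), clone G7 (G9a CM), which lacks the gene and carries a transgene with the protein changes Y1120V and Y1207F, and a line with genotype G9a-/-;GLP-/-, clone 248-6 (the G9a/GLP DKO-labelled library). From strain 129S4/SvJae came the wild-type line J1 (WT J1), a line without the de novo DNA methyltransferases Dnmt3a and Dnmt3b (Dnmt3a/3b DKO) and another without these and the maintenance enzyme Dnmt1 (Dnmt1/3a/3b TKO). The inhibitor series held wild-type TT2 cells given DMSO (inhibitor control) or UNC0638, an inhibitor of G9a and GLP, and collected on day 2, 4 or 14. The titles give a dose of 250 nM, the protocol text gives 250 uM, and whether treatment lasted all 14 days is not stated. The 2 G9a mutant lines are 1 clone each, so a difference between clones and a difference between genotypes cannot be told apart.

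Library totals ran from 11436808 to 25609600 expected counts. The targeted transcripts were low in both Dnmt lines and, for Ehmt1 only, in the G9a/GLP DKO-labelled library. Ehmt1 was at 7.99 CPM, a count scaled to library size, in that library and 40.1 in WT TT2. Ehmt2 was at 18.0 CPM there, 28.0 in G9a CM and 15.2 in WT TT2, which checks neither G9a label. Against 17.1 CPM in WT J1, Dnmt3a was at 4.27 in the double and 4.71 in the triple Dnmt mutant, Dnmt3b at 3.02 and 2.65 against 26.5, and Dnmt1 at 62.0 and 6.28 against 45.9. The 4 libraries of the inhibitor series stood apart: of 15868 genes that reached 1 CPM in some library, 26.7% were higher in all 4 than in all of the other 6, and 23.8% were lower. Pou5f1, a defining pluripotency gene, was at 10.2 to 33.6 CPM in those 6 and 291 to 456 CPM in the inhibitor series, although the inhibitor control and WT TT2 are the same unmodified line. All 10 embryonic stem cell markers examined reached 1 CPM in every library, and they did not move together. Besides Pou5f1, Utf1 and Tdgf1 were higher throughout the inhibitor series. Nanog (273 to 476 and 126 to 225 CPM), Sox2, Klf4 and Dppa5a were lower throughout, and Esrrb, Zfp42 and Tfcp2l1 overlapped.

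Transcripts of the 3 clusters were rare, and the gamma cluster held nearly all of them. In the order WT TT2, G9a CM, the G9a/GLP DKO-labelled library, WT J1, Dnmt3a/3b DKO, Dnmt1/3a/3b TKO, inhibitor control and UNC0638 days 2, 4 and 14, the summed gamma expected counts were 135.99, 174.44, 158.99, 252.95, 215.33, 231.45, 526.3, 994.76, 674.48 and 642.14. Scaled to library size, these sums were 5.60, 10.4, 12.6, 16.7, 12.8, 12.5, 38.7, 50.1, 41.2 and 39.8 CPM. WT TT2 was the lowest, the other 5 untreated libraries lay above it at 10.4 to 16.7 CPM, and the inhibitor series lay above all 6. Summed alpha counts in the same order were 12, 3, 4, 8, 9, 12, 4, 2, 7 and 10, and summed beta counts were 13, 2, 8, 14, 12, 16, 16, 16, 16 and 10. Per length, summed TPM (the share of transcripts corrected for gene length) ranged from 0.04 to 0.21 for alpha, from 0.03 to 0.37 for beta and from 1.97 to 30.55 for gamma. Every library thus had more gamma than alpha or beta transcript on the per-length scale. In bulk libraries, fewer cells with a transcript and less transcript per cell cannot be told apart.

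**Figure D1:**
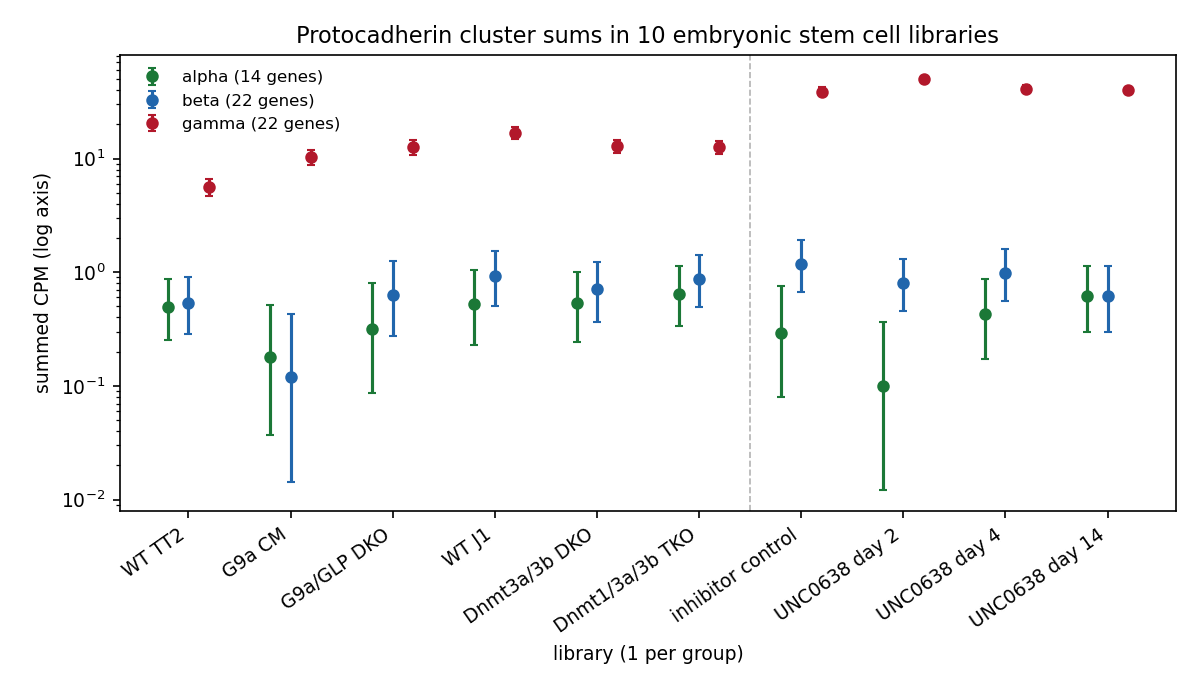
Summed CPM (log axis) of the 14 alpha, 22 beta and 22 gamma genes in each of the 10 libraries, 1 library per group. Points are the measured sums and bars are exact 95% Poisson intervals, which cover counting error only. Alpha and beta sums stay between 0.101 and 1.18 CPM everywhere, while the gamma sum runs from 5.60 CPM in WT TT2 to 50.1 CPM on UNC0638 day 2, with the inhibitor series to the right of the dashed line.

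No alpha gene reached 1 CPM in any library, and 3 of the 14 had no count in all 10. Between 1 and 4 alpha genes had any count in a library, and the leading gene changed from library to library: Pcdha4 in 4 libraries, Pcdha12 in 2, and Pcdha3, Pcdha5, Pcdha9 and Pcdhac2 in 1 each. Pcdha4 had 7.31 expected counts in WT TT2, 4.00 in the G9a/GLP DKO-labelled library, 1.97 in Dnmt3a/3b DKO, 6.11 in Dnmt1/3a/3b TKO, 2.00 on UNC0638 day 2 and 0 in the other 5. The C-type gene Pcdhac2, known from the spacing of serotonergic axons, was at 0 in 6 libraries and reached 5.89 counts, or 0.319 CPM, in Dnmt1/3a/3b TKO. Pcdhac1 had 1.31 counts in the inhibitor control and none elsewhere. At these counts single genes cannot be ranked, since 3 counts correspond to 0.124 to 0.237 CPM depending on the library. For the alpha sum, the 95% interval of the ratio included 1 in all 11 comparisons made here.

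The beta cluster was led by Pcdhb17, the only beta gene with counts in 9 of the 10 libraries. Its expected counts were 7, 0 and 3 in WT TT2, G9a CM and the G9a/GLP DKO-labelled library, 5 each in WT J1, Dnmt3a/3b DKO and the Dnmt1/3a/3b TKO line, 8 in the inhibitor control and 5, 10 and 4 on UNC0638 days 2, 4 and 14. Pcdhb22, Pcdhb7 and Pcdhb14 followed with 14, 13 and 12 counts over all 10 libraries. 7 beta genes, Pcdhb4, Pcdhb5, Pcdhb9, Pcdhb10, Pcdhb12, Pcdhb13 and Pcdhb15, had no count anywhere, and no beta gene reached 1 CPM. Pcdhb17, Pcdhb22, Pcdhb7 and Pcdhb14 were chosen after their values were seen. All beta counts were whole with a posterior standard deviation of 0, so the sharing of reads between genes left no uncertainty in them.

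A sum or ratio was called here when it differed at least 2-fold and its exact 95% interval, which covers counting error alone, excluded 1. The beta sum was low in G9a CM alone among the 10 libraries, at 2 counts (0.119 CPM) against 13 (0.536 CPM) in WT TT2. The ratio was 0.222 with a 95% interval of 0.0243 to 0.979, and the G9a/GLP DKO-labelled library exceeded G9a CM 5.33-fold (1.06 to 51.6). Each interval ended close to 1. The G9a CM interval included 1 after scaling by total count or by DESeq2 size factors, and leaving out Pcdhb17 also ended both calls. In the other 9 comparisons the beta interval included 1. Beta counts of 12 for Dnmt3a/3b DKO and 16 for Dnmt1/3a/3b TKO stood against 14 in WT J1, which gave ratios of 0.769 (0.325 to 1.79) and 0.936 (0.428 to 2.07), so a difference was not detectable at this depth.

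Within the gamma cluster every gene had counts in at least 1 library, and 4 genes had counts in all 10: Pcdhga1, Pcdhga5, Pcdhga12 and Pcdhgc4. 7 genes reached 1 CPM in some library, namely Pcdhgc4, Pcdhgc3, Pcdhga12, Pcdhga1, Pcdhga7, Pcdhga11 and Pcdhgb5. Pcdhgc4 was the one gene at or above that level everywhere, and Pcdhga12 reached it in 9 of 10 libraries. The number of gamma genes with any count was 12 to 20 in the 6 untreated lines and 19 to 22 in the inhibitor series. Over all genes, 21440 to 22780 had any count in the 6 lines and 19365 to 21098 in the inhibitor series. The other 15 gamma genes stayed below 1 CPM in every library, with maxima from 0.179 CPM (Pcdhga6) to 0.965 CPM (Pcdhga8).

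**Figure D2:**
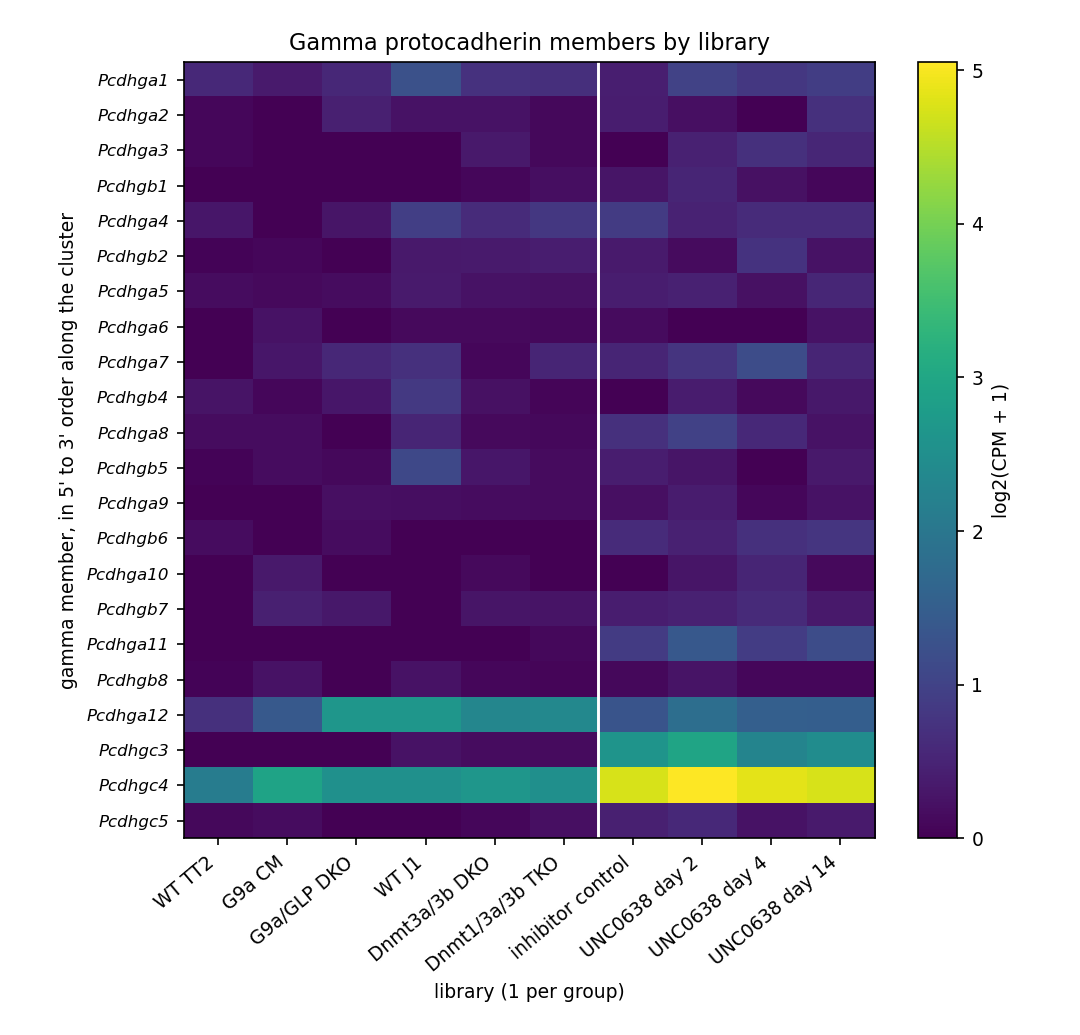
log2(CPM + 1) of the 22 gamma genes (rows, in 5′ to 3′ order) in the 10 libraries (columns, 1 per group; the white line separates the 6 untreated lines from the inhibitor series). Pcdhgc4 is the brightest row throughout the inhibitor series, Pcdhga12 is bright from the G9a/GLP DKO-labelled library to Dnmt1/3a/3b TKO, Pcdhgc3 is bright in the inhibitor series only, and most other rows stay dark.

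Pcdhgc4 (ENSMUSG00000023036.14, 37815079 to 37841873), the C-type isoform known to be needed for neuronal survival, gave 3.35, 6.58 and 4.82 CPM in WT TT2, G9a CM and the G9a/GLP DKO-labelled library. In WT J1 it gave 4.82 CPM, and in the Dnmt3a/3b DKO line and the Dnmt1/3a/3b TKO line 5.29 and 4.74 CPM. In the inhibitor series it gave 26.0 CPM in the control and 32.2, 27.9 and 26.0 on UNC0638 days 2, 4 and 14. The 2 sets of libraries did not overlap for this gene. Per length it was at 1.48 to 3.28 TPM in the 6 untreated lines and 15.4 to 23.6 TPM in the inhibitor series.

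Pcdhga12 (ENSMUSG00000102428.1, 37765580 to 37841873), the A-type gene nearest the 3′ end, had 15.00, 28.25 and 66.45 expected counts in WT TT2, G9a CM and the G9a/GLP DKO-labelled library. It had 79.99, 66.94 and 76.82 in WT J1, Dnmt3a/3b DKO and the Dnmt1/3a/3b TKO line, and 20.19, 50.62, 30.86 and 29.82 in the inhibitor control and on UNC0638 days 2, 4 and 14. In CPM these were 0.618, 1.68 and 5.26, then 5.28, 3.97 and 4.16, then 1.49, 2.55, 1.88 and 1.85. The 3 libraries of strain 129S4/SvJae and the G9a/GLP DKO-labelled library were higher than all 4 of the inhibitor series, and WT TT2 was the lowest of all. Its posterior standard deviation, which measures how uncertain the sharing of reads was, lay between 0.79 and 3.81 counts.

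The makeup of the gamma sum differed between libraries. The 3 C-type genes held 61.0% of rounded gamma counts in WT TT2 (exact 95% binomial interval 52.3% to 69.3%) and 64.9% (57.4% to 72.0%) in G9a CM. They held 38.4% (30.8% to 46.4%) in the G9a/GLP DKO-labelled library, 30.0% (24.5% to 36.1%) in WT J1, and 42.8% and 40.3% with Dnmt3a/3b DKO and with Dnmt1/3a/3b TKO. In the inhibitor series the C-type share was 77.6% to 81.4%. The share of Pcdhga12 was 11.0% for WT TT2, 16.1% for G9a CM, 41.5% (33.8% to 49.6%) for the G9a/GLP DKO-labelled library, 31.2% to 33.3% for the 3 libraries of strain 129S4/SvJae and 3.80% to 5.13% in the inhibitor series. B-type genes held 4.02% to 14.2%, with the highest share in WT J1.

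**Figure D3:**
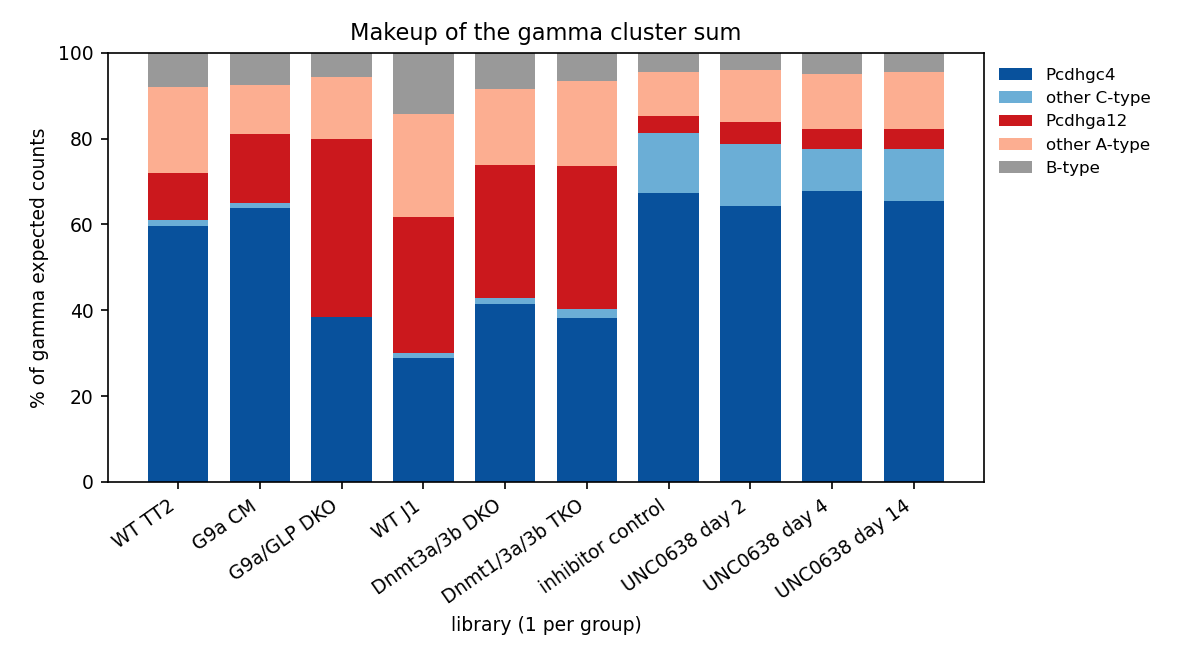
Percent of the gamma cluster's rounded expected counts held by Pcdhgc4, the other C-type genes, Pcdhga12, the other A-type genes and the B-type genes (stacked bars) in each library, 1 per group. Pcdhga12 takes 41.5% in the G9a/GLP DKO-labelled library against 11.0% in WT TT2, and C-type genes take at least 77.6% in all 4 libraries of the inhibitor series.

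The gene-level files do not separate reads of the variable exons from reads of the constant exons that all gamma genes share, and RSEM divides the latter among members. Of the nonzero gamma values 73.9% were not whole numbers, and the posterior standard deviation of Pcdhgc4 was 5.28 to 14.17 counts. The deposited abundance-weighted transcript length of Pcdhgc4 was 2273 to 2363 bases in all 10 libraries, within the 1665 to 5777 bases of the other gamma genes with counts. How many of the Pcdhgc4 reads lay in its own variable exon was not tested. The cluster sum rests on this division less than its members do: taking posterior mean counts moved the gamma sum by at most 2.30% in any library.

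In the comparison of the G9a lines with their wild type, the gamma sum was higher in both mutant lines, and Pcdhga12 carried most of the difference in the G9a/GLP DKO-labelled library. That library had a gamma sum 2.25-fold that of WT TT2 (1.77 to 2.84), and G9a CM had 1.85-fold (1.46 to 2.32). The first was thus called and the second was not. For Pcdhga12, the G9a/GLP DKO-labelled library exceeded WT TT2 8.51-fold (4.77 to 15.9) and exceeded G9a CM 3.14-fold (1.99 to 5.08), and G9a CM exceeded WT TT2 2.71-fold (1.39 to 5.42). The 3 libraries therefore formed a series, with WT TT2 lowest and the double mutant label highest. Pcdhgc4 differed less, at 1.44-fold (1.02 to 2.04) and 1.96-fold (1.47 to 2.66) of WT TT2, and the 2 mutant lines did not differ in it beyond counting error (ratio 0.733, 0.527 to 1.01). In G9a CM the Pcdhgc4 ratio passed 2-fold under total-count scaling, DESeq2 size factors and TPM, at log2 ratios of 1.08, 1.05 and 1.15. Without C-type genes and Pcdhga12, the rest of the gamma cluster gave 1.55, 1.98 and 2.51 CPM in WT TT2, G9a CM and the G9a/GLP DKO-labelled library, and both intervals against WT TT2 included 1.

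For single genes across the whole table, a gene was called when log2(CPM + 1) differed by at least 1, CPM was at least 1 in either library and the interval excluded 1. Of the 58 members, 2 could be tested so in each G9a comparison, Pcdhga12 and Pcdhgc4, and no alpha or beta gene could be tested in any comparison. In the G9a/GLP DKO-labelled library against WT TT2, Pcdhga12 was called higher, where 9.12% of all genes tested were called higher. In G9a CM against WT TT2 neither was called, where 10.7% of genes were called in either direction, and the log2(CPM + 1) difference of Pcdhga12 was 0.72. In the G9a/GLP DKO-labelled library against G9a CM, Pcdhga12 was called higher at a log2 difference of 1.23, where 6.66% of genes were. By the interval alone, with no minimum, 4 gamma genes were higher and none lower in the G9a/GLP DKO-labelled library against WT TT2 (22.2% of genes with any count were higher and 21.2% lower). These were Pcdhga12, Pcdhgc4, Pcdhga2 and Pcdhga7, of 17 gamma genes with any count. In G9a CM the 4 were Pcdhga12, Pcdhgc4, Pcdhga10 and Pcdhgb7 of 18 (17.5% of all), with Pcdha4 and Pcdhb17 lower (22.1% of all).

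These differences turn on which wild-type library stands as reference. Against the inhibitor control, which is also wild-type TT2, the gamma sum of the G9a/GLP DKO-labelled library was lower, at a log2 ratio of -1.62, and that of G9a CM at -1.90. Against WT J1 they gave -0.41 for the G9a/GLP DKO-labelled library, and Pcdhga12 gave -0.0067 there and -1.66 in G9a CM. Pcdhga12 in the G9a/GLP DKO-labelled library exceeded both TT2 references, at 5.26 CPM against 0.618 and 1.49 CPM.

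In the lines without DNA methyltransferases, gamma transcripts were somewhat lower in CPM than in WT J1, and no cluster sum differed 2-fold. For Dnmt3a/3b DKO the gamma sum ratio was 0.764 (0.633 to 0.918), and for Dnmt1/3a/3b TKO it was 0.750 (0.623 to 0.898). The 2 mutant lines lay together, at a ratio of 0.981 (0.811 to 1.19) to each other. Pcdhgc4 gave ratios of 1.10 (0.794 to 1.51) and 0.984 (0.716 to 1.37), so the difference lay outside the C-type genes. Without the C-type genes the gamma sum was 11.7 CPM in WT J1, 7.30 with Dnmt3a/3b DKO and 7.51 with Dnmt1/3a/3b TKO. B-type genes gave 2.37 CPM in WT J1 and 1.05 and 0.872 CPM in the mutants, called lower at ratios of 0.445 (0.240 to 0.811) and 0.368 (0.189 to 0.673). Pcdhgb5 alone held 17.00 of the 35.84 B-type counts in WT J1, and without it the ratios were 0.656 (0.307 to 1.39) and 0.614 (0.280 to 1.27), so both calls ended. They also ended on the deposited TPM scale, at log2 ratios of -0.65 and -0.85. On the deposited TPM scale the gamma sum was 4.02 in WT J1, 4.34 with Dnmt3a/3b DKO and 4.15 with Dnmt1/3a/3b TKO, so the small difference in CPM was not seen per length.

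Single genes were read beside the share of all genes. Pcdhgb5 had 17.00 counts in WT J1, 4.00 with Dnmt3a/3b DKO and 2.00 with Dnmt1/3a/3b TKO, and between 0 and 4.47 in the other 7 libraries. WT J1 thus stood alone as the high library for Pcdhgb5. Pcdhga1, an A-type gene at the 5′ end of the cluster, gave 1.37 CPM in WT J1, 0.652 with Dnmt3a/3b DKO and 0.595 with Dnmt1/3a/3b TKO, and between 0.297 and 1.01 CPM in the others. None of the 4 members tested in either mutant line was called, where 19.3% of genes with Dnmt3a/3b DKO and 21.7% with Dnmt1/3a/3b TKO were called in either direction. With 0.5 CPM added in place of 1, 1 member was called in each. By the interval alone, 3 of 20 gamma genes with any count were lower in each line, which does not exceed the 21.3% and 22.4% of all such genes that were lower. They were Pcdhgb4 and Pcdhgb5 in both lines, Pcdhga7 in Dnmt3a/3b DKO and Pcdhga1 in Dnmt1/3a/3b TKO. No gamma gene was higher, where 22.4% and 22.0% of genes were, and among alpha genes Pcdha3 was higher in Dnmt3a/3b DKO and Pcdha12 lower in both. Against WT TT2 in place of WT J1, the gamma log2 ratios were 1.19 and 1.16 and those of Pcdhga12 2.68 and 2.75, and the direction turned. Between the 2 mutant lines neither of 2 members tested was called, where 3.13% of genes were.

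**Figure D4:**
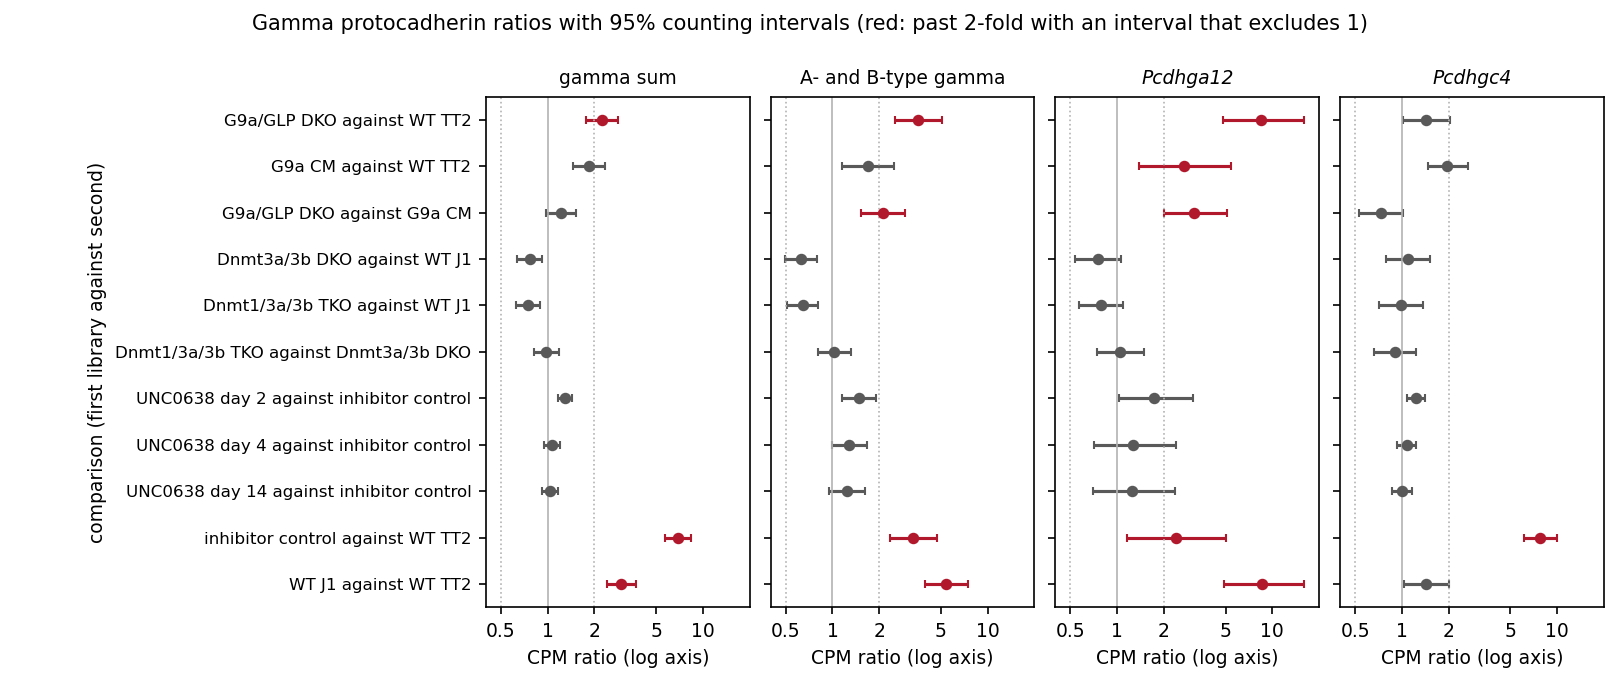
CPM ratios (log axis) of the gamma sum, the A- and B-type gamma genes together, Pcdhga12 and Pcdhgc4 in 11 comparisons of 2 libraries each. Bars are exact 95% conditional binomial intervals of counting error, the solid line marks 1, the dotted lines mark 2-fold differences, and red points pass 2-fold with an interval that excludes 1. The points that lie farthest right are Pcdhga12 in the G9a/GLP DKO-labelled library (8.51) and WT J1 (8.55) against WT TT2, and the gamma sum (6.91) and Pcdhgc4 (7.77) of the inhibitor control against WT TT2.

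After UNC0638, gamma transcripts were higher on day 2 and close to the control on days 4 and 14. The gamma sum was 38.7 CPM in the control, 50.1 on day 2, 41.2 on day 4 and 39.8 on day 14. The ratios were 1.29 (1.16 to 1.44), 1.06 (0.947 to 1.19) and 1.03 (0.915 to 1.16), none of them 2-fold. On day 2 Pcdhga12 was 1.72-fold (1.02 to 3.09) and Pcdhgc4 1.24-fold (1.08 to 1.41) of the control, and for both the ratio on days 4 and 14 had an interval that included 1. Scaled by total count, the day 2 log2 ratio of Pcdhga12 was 1.02, past the rule, and on the TPM scale it was 1.0. Pcdhgc3 gave 5.09 CPM in the control and 6.71, 3.83 and 4.52 on the 3 days, and no interval against the control excluded 1.

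None of the 5 members tested on day 2, 4 on day 4 and 4 on day 14 was called, where 4.90%, 2.70% and 3.27% of genes were called in either direction. By the interval alone, Pcdhga12 and Pcdhgc4 were higher on day 2 (17.3% of genes with any count), Pcdhga3, Pcdhga7 and Pcdhga10 on day 4 (14.9%) and Pcdhga3 on day 14 (10.6%). No member was lower on any day, where 19.5%, 9.89% and 17.1% of genes were. Pcdhga3 had no count in the control and 7.39, 10.08 and 7.25 counts on the 3 days. Pcdhga7 had 6.02 counts in the control and 14.00, 20.81 and 7.00 on the 3 days, with a day 4 ratio of 2.87 (1.13 to 8.79) and intervals that included 1 on days 2 and 14. Beta sums of 16, 16, 16 and 10 counts gave ratios of 0.684, 0.830 and 0.526, with intervals that all included 1. The 3 days share 1 control library, so their ratios are not independent of each other.

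Of the 11 gamma sum ratios, the one farthest from 1 lay between 2 libraries of the same unmodified line. The inhibitor control, wild-type TT2 cells with DMSO, had a gamma sum 6.91-fold that of WT TT2 (5.71 to 8.40), and its interval lay above those of all 10 other comparisons. C-type genes differed 9.18-fold (7.26 to 11.8) and A- and B-type genes together 3.32-fold (2.34 to 4.70). Pcdhgc3 (ENSMUSG00000102918.1, 37806410 to 37841873), a C-type gene known from dendrite growth in the cortex, had 0 counts in WT TT2, G9a CM and the G9a/GLP DKO-labelled library. It had 2.82, 1.96 and 2.00 in WT J1, Dnmt3a/3b DKO and the Dnmt1/3a/3b TKO line, and 69.26, 133.36, 62.77 and 72.88 in the inhibitor control and on the 3 UNC0638 days. With a floor of 3 counts set in place of 0 in WT TT2, the ratio of the inhibitor control to it was 41.2. This value leaves out counting error in the inhibitor control. Pcdhga11 (ENSMUSG00000102742.1) was split the same way, at 0 in 5 of the 6 untreated lines, 0.0839 CPM in Dnmt1/3a/3b TKO and 0.842 to 1.61 CPM in the inhibitor series. The remaining C-type gene, Pcdhgc5, was at 0 to 0.162 CPM in the 6 lines and 0.183 to 0.504 CPM in the inhibitor series.

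**Figure D5:**
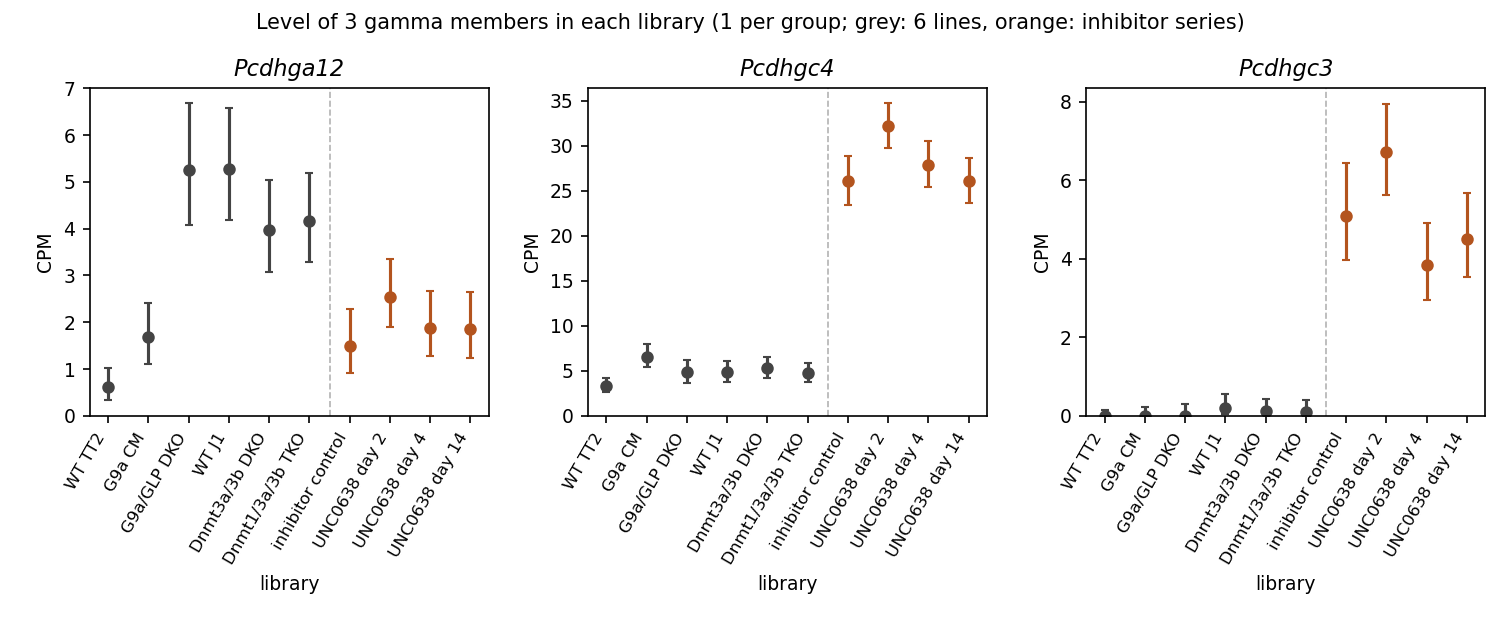
CPM of Pcdhga12, Pcdhgc4 and Pcdhgc3 in each library (linear axes from 0, 1 library per group; bars are exact 95% Poisson intervals of counting error; grey marks the 6 untreated lines and orange the inhibitor series). Pcdhgc4 and Pcdhgc3 are separated between the 2 sets, whereas Pcdhga12 is highest in the G9a/GLP DKO-labelled library (5.26 CPM) and WT J1 (5.28 CPM) and low in WT TT2 (0.618 CPM).

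Of 3 members tested between the inhibitor control and WT TT2, 2 were called higher, Pcdhgc3 and Pcdhgc4, where 24.1% of all genes were called higher. By the interval alone 8 of 21 gamma genes with any count were higher and none lower, where 25.0% of genes were higher and 27.5% lower. Pcdhgc4 was higher in all 4 libraries of the inhibitor series than in all other 6, as were 26.7% of all genes that reached 1 CPM. Pcdhgc3 and Pcdhga11 were split the same way, but they reached 1 CPM in the inhibitor series alone, so nothing is read from their number. The labels name no batch, and the treatment arm and the library set cannot be told apart.

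The wild-type lines also differed. WT J1 had a gamma sum 2.98-fold that of WT TT2 (2.41 to 3.70), with Pcdhga12 at 8.55-fold (4.89 to 16.0) and the other A- and B-type genes together at 4.13-fold (2.79 to 6.12), while Pcdhgc4 was at 1.44-fold (1.04 to 2.01). Pcdhgb5 and Pcdhga12 were called higher of 4 members tested, where 11.0% of genes were. By the interval alone 7 of 18 gamma genes were higher and none lower, where 21.9% of genes were higher and 24.5% lower. With scaling by total count 1 member was called, and on the deposited TPM scale 0 were.

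Genes known to control protocadherin promoters were read beside these values. All 26 examined, among them CTCF, the cohesin subunits, SMCHD1, SETDB1 and its partners, and the DNA methyltransferases and TET enzymes, reached 1 CPM in every library. In the G9a/GLP DKO-labelled library against WT TT2, 2 of 26 were called higher and 1 lower, namely Dnmt3b (226 against 107 CPM), Tet2 (39.7 against 18.2) and Ehmt1, near the 9.12% and 7.99% of all genes. In G9a CM 2 of 26 were called higher, Dnmt3a (146 against 56.5 CPM) and Dnmt3b (304 against 107), where 4.97% of all genes were, and 0 lower, where 5.78% were. Setdb1, a methyltransferase of lysine 9 of histone H3, was at 41.6 to 81.4 CPM over the 10 libraries and called in no comparison. Smchd1 was at 49.3 to 71.4 CPM in the 6 untreated lines and 15.8 to 24.3 CPM in the inhibitor series. Of all genes that reached 1 CPM, 23.8% were likewise lower in all 4 libraries of that series. Between the inhibitor control and WT TT2, 10 of 26 were called lower, against 23.7% of all genes, and 6 higher, against 24.1%, with a median log2 difference of -0.24. The lower ones included Ctcf (28.5 against 87.2 CPM), Rad21 (74.7 against 199) and Smchd1 (15.8 against 57.6), and the higher ones Dnmt3b (512 against 107) and Ehmt2 (77.3 against 15.2). The part of these genes in the gamma difference was not tested.

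Genes around the clusters differed among themselves, and some moved with the gamma sum and some against it. Taf7, an intronless gene for a subunit of the general transcription factor TFIID, lies between the beta and gamma arrays. It was at 354 to 499 CPM in the 6 untreated lines and lower, at 151 to 186 CPM, in the inhibitor series where gamma was highest. Of all genes that reached 1 CPM, 23.8% were likewise lower in all 4 libraries of that series. Ndufa2 was also lower throughout that series. Hars, Hars2, Tmco6, Wdr55, Dnd1, Hdac3, Fchsd1 and Arap3 were higher throughout, as were 26.7% of all genes that reached 1 CPM. Arap3 reached 1 CPM in that series alone. The rest of the 16 neighbouring genes listed overlapped. Slc25a2, a mitochondrial ornithine carrier gene beside Taf7, stayed below 1 CPM throughout. Zmat2, before the alpha cluster, was at 94.5 to 162 CPM and called in no comparison. Diaph1, a formin gene beyond the gamma cluster, was at 9.78 CPM in WT J1 and 18.2 to 32.5 CPM in the other 9. Against WT J1, Diaph1 was called higher in both Dnmt lines, and Wdr55 in Dnmt1/3a/3b TKO. That made 1 of 12 neighbours tested with Dnmt3a/3b DKO and 2 of 12 with Dnmt1/3a/3b TKO (9.46% and 11.1% of all genes). Both genes were called lower in WT J1 against WT TT2, as were 12.8% of all genes. Of the 16 neighbouring genes listed, 0 of the 14 tested were called higher and 1 lower, Ndufa2, in the G9a/GLP DKO-labelled library against WT TT2 (9.12% and 7.99% of all genes). Between the inhibitor control and WT TT2, 6 of 13 were called higher and 1 lower (24.1% and 23.7% of all genes), with a median log2 difference of 0.98 against -0.07 over all genes tested. The farthest were Dnd1 (39.6 against 4.78 CPM), a germ cell gene, Ndufa2 (112 against 647 CPM), a subunit of respiratory complex I, and Fchsd1 (6.62 against 0.907 CPM).

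Protocadherins outside the clusters were mostly too low to test. Of 12 non-clustered genes, 10 stayed below 1 CPM in all libraries. Pcdh19 was at 0.264 CPM in WT J1, 2.31 with Dnmt3a/3b DKO and 4.44 with Dnmt1/3a/3b TKO and was called higher in both (9.46% and 11.1% of genes). Pcdh19 in the TT2 lines was at 1.57, 1.13 and 2.53 CPM for WT TT2, G9a CM and the G9a/GLP DKO-labelled library. Pcdh1 was at 0.0792 to 0.577 CPM in the 6 untreated lines, 11.2 in the inhibitor control, and 3.07, 8.85 and 13.8 on UNC0638 days 2, 4 and 14. It was called higher in the inhibitor control against WT TT2, as were 24.1% of genes, and lower on day 2 against that control, as were 1.93%.

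Of 12 classical cadherins and catenins, which join cells at adherens junctions, 4 stayed below 1 CPM in all libraries. Cdh1, Cdh3, Jup and Ctnna1 were higher in all 4 libraries of the inhibitor series than in the other 6. The same held for 26.7% of all genes that reached 1 CPM. The other 8, among them Ctnnb1 (beta-catenin) at 291 to 417 and 363 to 438 CPM, overlapped between the sets. Cdh3 (P-cadherin) was at 0.396 to 7.04 CPM in the 6 untreated lines and 64.2 to 73.4 CPM in the inhibitor series, and Jup (plakoglobin) at 6.21 to 17.2 and 58.5 to 135 CPM. Between the inhibitor control and WT TT2, 5 of 7 tested were called higher and 0 lower, against 24.1% of all genes higher, with a median log2 difference of 1.34. In the G9a/GLP DKO-labelled library and in G9a CM, 0 of 8 were called against WT TT2 in either direction, where 9.12% and 7.99% of all genes were called higher and lower in the former and 4.97% and 5.78% in the latter. Of genes for proteins known to bind clustered protocadherins, such as the receptor Ret and the kinases Fyn, Ptk2 and Ptk2b, 0 of 7 were called in the G9a/GLP DKO-labelled library against WT TT2 and 1 of 7, Ptk2b, in G9a CM (4.63 against 1.61 CPM). Between the inhibitor control and WT TT2, 4 of 8 were called higher and 2 lower, where 24.1% and 23.7% of all genes were. The higher ones were Cyfip1, Ptk2b, Ret and Wasf1, and the lower ones Fyn and Marcks. In each Dnmt line against WT J1, 1 of 7 was called lower, Fyn, where 9.79% (Dnmt3a/3b DKO) and 10.5% (Dnmt1/3a/3b TKO) of all genes were. With so few genes tested, these counts cannot be set apart from those shares.

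Markers of other cell types were read beside the gamma values, since protocadherins are best known in neurons. Of 18 neural markers, 6 of 11 tested were called higher with Dnmt3a/3b DKO and 5 of 9 with Dnmt1/3a/3b TKO against WT J1, with none lower, where 9.46% and 11.1% of all genes were called higher. The gamma sum in those lines was lower in CPM and not in TPM. The median log2 differences of these markers were 1.07 and 1.06, against 0.03 and -0.01 over all genes tested. Stmn2, a tubulin-binding protein of growing axons, was at 24.0 CPM in WT J1 and 621 and 614 CPM in the mutants. In WT TT2, Stmn2 was at 290 CPM. WT J1 was itself low in several of these markers. Against WT TT2, 5 of 12 tested were called lower in WT J1 and 1 higher, where 12.8% and 11.0% of all genes were. The summed neural markers ranged from 48.7 to 707 CPM in the 6 untreated lines and from 282 to 373 CPM in the inhibitor series. This overlap rests largely on Stmn2, at 24.0 to 621 and 108 to 145 CPM. Tubb3 (12.4 to 42.7 and 121 to 185 CPM), Nefl, Nes, Olig2, Rbfox3, Elavl3 and Gfap were higher throughout the inhibitor series. Of all genes that reached 1 CPM, 26.7% were likewise higher throughout. Gfap reached 1 CPM in that series alone. The other neural markers, such as Pax6 and Map2, overlapped, and none was lower throughout. Between the inhibitor control and WT TT2, 5 of 13 tested were called higher and 1 lower, where 24.1% and 23.7% of all genes were. In the G9a/GLP DKO-labelled library against WT TT2, 1 of 11 was called higher (Neurod1) and 1 lower (Map2), near the 9.12% and 7.99% of all genes. Summed fibroblast and feeder markers were at 3.38 to 7.36 CPM in the 6 lines and 8.05 to 10.4 CPM in the inhibitor series. Col1a1 made up most of the sum in the inhibitor series, at 4.52 to 7.06 CPM against 0.330 to 4.51 in the 6 lines. Of the 8 markers only Col1a1 and Col1a2 were higher throughout that series, and the rest overlapped. Col1a1 was separated narrowly, at 4.52 against 4.51 CPM, and Col1a2 reached 1 CPM on UNC0638 day 14 alone. Of all genes that reached 1 CPM, 26.7% were higher throughout. Summed extraembryonic markers were at 4.24 to 11.9 CPM in the 6 lines and 8.66 to 18.4 CPM in the inhibitor series. On UNC0638 day 14, 3 of 5 tested (Gata3, Gata4 and Sox17) were called higher against the inhibitor control, where 2.65% of all genes were. On days 2 and 4, 0 of 5 and 1 of 4 were called higher (2.98% and 2.07% of all genes), and Sox7 was lower on day 2 (1.93%). Against WT TT2, 3 of 4 were called higher in WT J1 (11.0%) and 2 of 4 in the inhibitor control (24.1%). These counts rest on few genes at low CPM. The part of other cell types in the gamma difference was not tested.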

How the data were processed

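Gene-level tables of 10 RNA-seq libraries were used, and 120 further samples of the series were not analysed here. STAR 2.5.3a, RSEM and the build GRCm38 (mm10) are named for the alignment and counting, per the submitters' processing notes. Annotation release and strand setting are not given in the sources used here. Deposited by the authors were RSEM expected counts per gene, in which reads that match several genes are shared out, and the deposited TPM values are scaled by effective gene length and library total, per the file headers. Deposited posterior mean counts and posterior standard deviations were also read.

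Symbols were matched by gene ID without its version for 99.7% of IDs, and 147 IDs had none. Coordinates came from a RefSeq table of GRCm38. Member counts were summed per cluster before rounding for levels and intervals. Counts were scaled to CPM with TMM factors over all genes of the 10 libraries (edgeR 4.0.16, R 4.3.3), on expected counts rounded to whole numbers for calls across all genes. Intervals of ratios are exact 95% conditional binomial (Clopper-Pearson) intervals. Reads carry no molecular identifiers, so all intervals and the floor of 3 counts cover counting error only. The call rules describe libraries, not conditions. They were run on simulated counts that held counting error only, so that run cannot show how they behave under other noise.

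The members, the gene lists and the naming rule were chosen with earlier results of these data known. The rule names the cluster sums, members with at least 1 CPM in any library, the C-type members, 7 regulators and 4 neighbours, and up to 3 called genes of each list. Other members are named where few share a call or a count, and were chosen after their values were seen. So were further genes named from the lists. Alternatives were total-count scaling, DESeq2 1.42.0 size factors, TPM, other reference libraries, no minimum, 0.5 CPM added, and leaving out the largest member. Posterior mean counts and the alternatives for single members and B-type genes were chosen after seeing the data.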

Additional observations from a re-analysis of the deposited data

How the results depend on the processing

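No paired analysis was possible because each group has 1 RNA library. Values are log2 ratios or counts of members called. With the inhibitor control as reference, the gamma sum gave -1.62 in the G9a/GLP DKO-labelled library and -1.90 in G9a CM, and Pcdhgc4 gave -2.43 and -1.98. With WT J1 as reference, the gamma sum of the G9a/GLP DKO-labelled library gave -0.41, and Pcdhga12 gave -0.0067 there and -1.66 in G9a CM. With WT TT2 as reference, Dnmt3a/3b DKO had a gamma sum at 1.19 and Dnmt1/3a/3b TKO at 1.16, and Pcdhga12 gave 2.68 and 2.75. The gamma B-type sum gave 1.22 and 0.95 there, and in Dnmt3a/3b DKO against WT J1 its call also ended under total-count scaling (-0.99) and with posterior mean counts (-0.98). On the TPM scale, these cluster sums passed 1: gamma in G9a CM against WT TT2 (1.12), beta in the inhibitor control (1.62) and WT J1 (1.06) against WT TT2, and alpha on UNC0638 day 14 (1.50). Pcdhgc4 in G9a CM against WT TT2 passed the rule under total-count scaling (1.08), DESeq2 size factors (1.05) and TPM (1.15), and Pcdhga12 on UNC0638 day 2 under total-count scaling (1.02) and TPM (1.0). Beta in G9a CM against WT TT2 lost its call under total-count scaling (-2.07), DESeq2 size factors (-2.10) and without the member with the most counts (-1.06). Beta in the inhibitor control against WT TT2 gained one under DESeq2 size factors (1.21). Without the member with the most counts, beta in the G9a/GLP DKO-labelled library against G9a CM gave 1.74 with an interval including 1, and gamma gave 1.04, past the rule. Members called fell from 1 to 0 on the TPM scale in the G9a/GLP DKO-labelled library against G9a CM. They fell from 2 to 1 (total count) and 0 (TPM) in WT J1 against WT TT2, and rose from 0 to 1 in both Dnmt lines with 0.5 CPM added. The cause was not tested in any of these. Depth limits the alpha and beta clusters most, where a sum of 16 counts is the highest in any library.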
